A study of Mus musculus with 6 samples.

Results

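The mir-29 family of the mouse has 4 genes, mir-29a, mir-29b-1, mir-29b-2 and mir-29c. Its members were taken by name, and all 4 were found among the 1006 miRNA precursor entries of a small RNA sequencing table that covers osteoblasts, bone marrow cells and extracellular vesicles (EVs) of a muscle cell line. Of the 6 libraries, 1 was made from mouse primary osteoblasts (OB), 1 from mouse primary bone marrow cells (BM), 2 from EVs that C2C12 mouse myoblasts released over 48 hr under control conditions (Myo-EVs), and 2 from EVs of C2C12 cells kept under fluid flow shear stress (FFSS-Myo-EVs). FFSS is the drag of moving medium on cells, applied here with an orbital shaker as a model of mechanical loading of muscle. The EVs were pelleted by ultracentrifugation from medium with EV-depleted serum.

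The labels give a mixed background for all 6 libraries, C2C12 included, with 81.25% from C57BL/6J and 18.75% from 129/SvJ, and a control state for all but the FFSS-Myo-EVs. The methods give that background for the mice bred for the study only, and C2C12 was obtained from a cell collection. For OB and BM the labels state an age of 8 to 10 weeks. The methods describe bone marrow from the tibiae of a single male mouse of 8 weeks. Osteoblasts, by contrast, came from the calvariae of newborn male mice, pooled and used at second passage. These descriptions belong to the culture assays, and the sequencing section does not state that the same cells were used. C2C12 is a clonal line, so both EV groups come from 1 line of cells. The growth protocol in the labels speaks of vitamin D and dexamethasone and not of FFSS, which the titles and the stress label name. Nothing states that libraries of the same group came from separate cultures, and p-values therefore measure only the spread between these libraries.

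The miR-29 family is known for lowering mRNAs of the extracellular matrix, among them those of fibrillar collagens, elastin and fibrillin. In the osteoblast lineage it is known to rise as cells mature and to act on collagen mRNAs and on inhibitors of Wnt signalling. A miRNA recognises its target mRNAs mainly by its seed, which is bases 2 to 8 counted from the 5′ end.

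The mature sequences are shown because the shared seed defines the family and because the near identity of the members limits how far their reads can be told apart. They were taken from RefSeq (GRCm38.p6), in which 4 of 4 members were matched, and are written 5′ to 3′ with the seed in capitals. The forms cut from the 3′ arm of the precursors, which are regarded as the active ones, were as follows.
miR-29a-3p: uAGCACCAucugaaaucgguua
miR-29b-3p: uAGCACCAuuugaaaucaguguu
miR-29c-3p: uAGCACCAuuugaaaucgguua
The forms from the 5′ arm were as follows.
miR-29a-5p: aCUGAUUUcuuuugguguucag
miR-29b-1-5p: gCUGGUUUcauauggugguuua
miR-29b-2-5p: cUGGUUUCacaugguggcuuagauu
miR-29c-5p: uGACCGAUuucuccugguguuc

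The seed of the 3′ arm was the same in all members, and among 1679 distinct mature names in the RefSeq table it was held by these 3 names alone. The 5′ arm forms had 4 different seeds. Positions below are counted from 1 at the 5′ end of the first-named miRNA. From miR-29a-3p to miR-29c-3p there was 1 substitution, C10U. From miR-29a-3p to miR-29b-3p there were 4 over the shared length, C10U, G18A, U21G and A22U. The 3′ arm form of mir-29b-1 and mir-29b-2 was identical, and a read of miR-29b-3p alone therefore cannot be assigned to either gene. The deposited values are given per precursor and do not separate the arms.

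The genes lie in pairs. In GRCm38 (GENCODE M21), Mir29a is at chr6:31062660-31062747 and Mir29b-1 at chr6:31063023-31063093, both on the minus strand with 275 bases between them. Mir29a overlaps no other annotated gene, whereas Mir29b-1 overlaps part of an exon of the lincRNA Gm27019 on the same strand. Mir29b-2, at chr1:195037040-195037120, and Mir29c, at chr1:195037547-195037634, are on the plus strand with 426 bases between them. Both lie in an exon of the noncoding transcript A330023F24Rik and opposite an exon of the protein-coding gene Cd46 that includes UTR.

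The libraries held from 2414132 to 6092460 counts, and the authors' normalized expression value equals the count times 1 constant per library. As a check of the labels, the summed value of 6 muscle miRNAs was 118.9 in OB, 71.9 in BM and from 2052.9 to 2641.9 in the EVs, where nearly all of it was mir-206 and mir-1a-1 had 0 counts. Blood cell miRNAs (7 of 9 listed were present) summed to 21209.6 in BM and 319.3 in OB, while the EVs ranged from 170.6 to 260.1. The myeloid miRNA mir-223 alone stood at 9710.3 in BM, 122 in OB and 0 to 7 in the EVs. Mesenchymal miRNAs (6 entries) summed to 22199.3 in BM and 536436 in OB, while the EVs ranged from 335112 to 437712. The part of these differences in the results below was not tested.

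mir-29a was by far the most abundant member in every library. Its normalized expression value was 8577.5 in OB and 13759.6 in BM. It was 4122.7 and 3657.7 in the Myo-EVs and 3754.7 and 4199.7 in the FFSS-Myo-EVs. BM was highest, OB came second, and all 4 EV libraries lay below both. By count mir-29a ranked 28 of 751 detected entries in BM, 40 of 739 in OB, and from 61 to 70 in the EVs. The counts behind these values ranged from 3054 to 34643. Rescaled to normalized values, the exact Clopper-Pearson 95% interval of the count was 8443 to 8713 in OB and 13616 to 13905 in BM. Such intervals cover counting error only, since PCR copies of a molecule were not marked and reads are not independent, and OB and BM have no replicate.

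**Figure D1:**
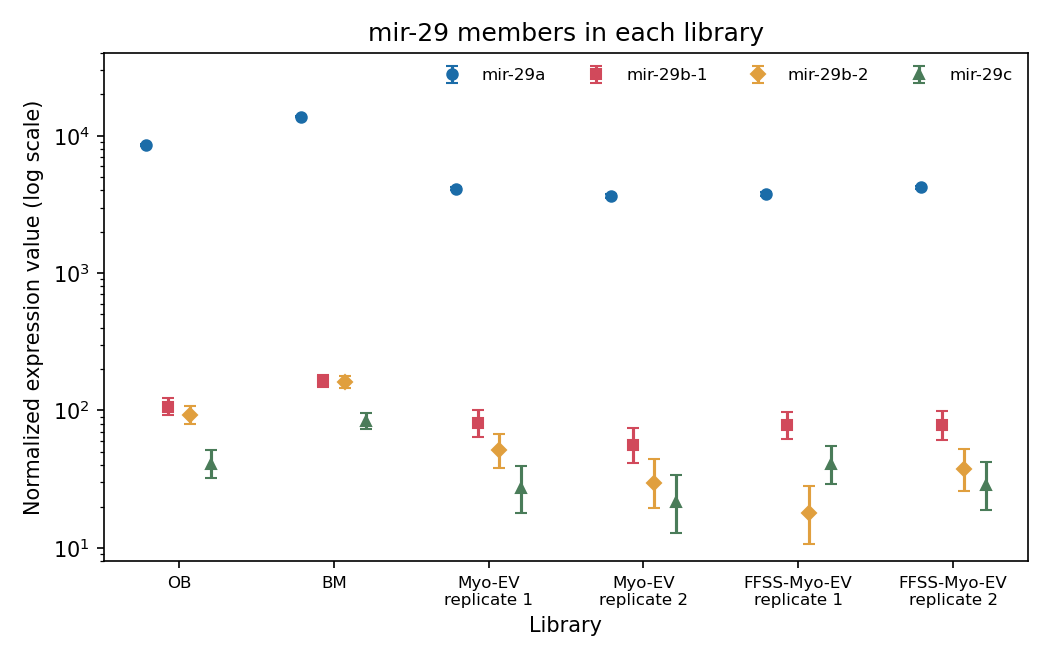
Normalized expression value (log axis) of mir-29a, mir-29b-1, mir-29b-2 and mir-29c in the 6 libraries, with bars for the exact 95% counting interval (hidden by the point for mir-29a). mir-29a lies between 3657.7 and 13759.6, while the other members lie between 17.9 and 164.

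The other members were far lower. mir-29b-1, the neighbour of mir-29a on chromosome 6, had values of 106.6 in OB, 164 in BM, 81.3 and 56.3 in Myo-EVs, and values of 78.7 and 78.6 in FFSS-Myo-EVs. mir-29b-2, its copy on chromosome 1, had 93.3 in OB, 160.5 in BM, 51.2 and 29.9 in Myo-EVs, and then 17.9 and 37.7 in FFSS-Myo-EVs. mir-29c had 40.9 in OB, 83.8 in BM, 27.1 and 21.6 in Myo-EVs, with 40.8 and 28.8 in FFSS-Myo-EVs. Each of these members was highest in BM and next highest in OB, although for mir-29c an FFSS-Myo-EV library was nearly level with OB. Their EV values rest on 18 to 81 counts, so that the interval of mir-29b-2 in FFSS-Myo-EV replicate 1, for instance, ran from 10.6 to 28.3. The 3′ arm forms are 22 or 23 bases long, and levels of the members were therefore compared without a correction for length.

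The family summed to 8818.3 in OB, 14167.9 in BM and from 3765.5 to 4344.8 in the EVs. This was 0.308% of all counts in OB, 0.585% in BM and from 0.129% to 0.149% in the EVs.

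The make-up of the family was led by mir-29a in all libraries. mir-29a supplied 97.3% of the family's counts in OB (Wilson 95% interval 97.0 to 97.5), 97.1% in BM (96.9 to 97.3) and from 96.3% to 97.1% in the EVs. mir-29b-1 supplied 1.21% in OB, 1.16% in BM, 1.90% and 1.49% in Myo-EVs, with 2.02% and 1.81% in FFSS-Myo-EVs. mir-29b-2 supplied 1.06%, 1.13%, 1.20%, 0.795%, 0.461% and 0.867% in the same order, and mir-29c supplied 0.463%, 0.592%, 0.633%, 0.573%, 1.05% and 0.663%. The order mir-29a, mir-29b-1, mir-29b-2, mir-29c held in 5 of the 6 libraries. In FFSS-Myo-EV replicate 1, mir-29c (41 counts) stood above mir-29b-2 (18 counts).

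The mir-29b copies were nearly equal in OB and BM and unequal in the EVs, whose source cells have no library here. Of the counts of the pair, mir-29b-1 held 53.3% in OB (48.2 to 58.4) and 50.6% in BM (47.1 to 54.0). In the EVs it held 61.4% (52.8 to 69.2) and 65.3% (53.8 to 75.2) for Myo-EVs, and 81.4% (72.6 to 87.9) and 67.6% (58.2 to 75.8) for FFSS-Myo-EVs. All 4 EV libraries were above both cell libraries, though the interval of each EV library other than FFSS-Myo-EV replicate 1 overlapped that of OB, and those of both Myo-EV libraries also overlapped that of BM. In 20 other pairs of copies with at least 50 counts in every library, the EV shares also lay wholly to 1 side of both cells in 10. Separation of any size was thus common, but in most of these pairs it was small. In let-7f, for instance, the first copy held 48.93% to 49.11% in the EVs beside 48.91% in OB and 48.24% in BM. Only in mir-365 were the EVs (6.87% to 16.3%) and the cells (48.7% and 45.8%) further apart than for mir-29b. The distance was nearly as large in mir-24 (EVs 42.96% to 45.59%, OB 35.36%, BM 32.55%). It was also nearly as large in mir-181b (EVs 56.96% to 64.15%, OB 49.75%, BM 46.9%). Each mir-24 and mir-181b copy had a normalized value of at least 1016.7 in every EV library. The mir-29b copies had at most 81.3 there. The 3′ arm forms of the mir-29b copies are identical, so how reads that match both were assigned bears directly on the mir-29b-1 share. That step is not given in the sources used here. The mir-26a copies had nearly equal counts in every library, for instance 7378 and 7405 in Myo-EV replicate 1. Whether reads matching both copies of a pair were counted for each was not tested. The Wilson intervals take each read as counted once.

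**Figure D2:**
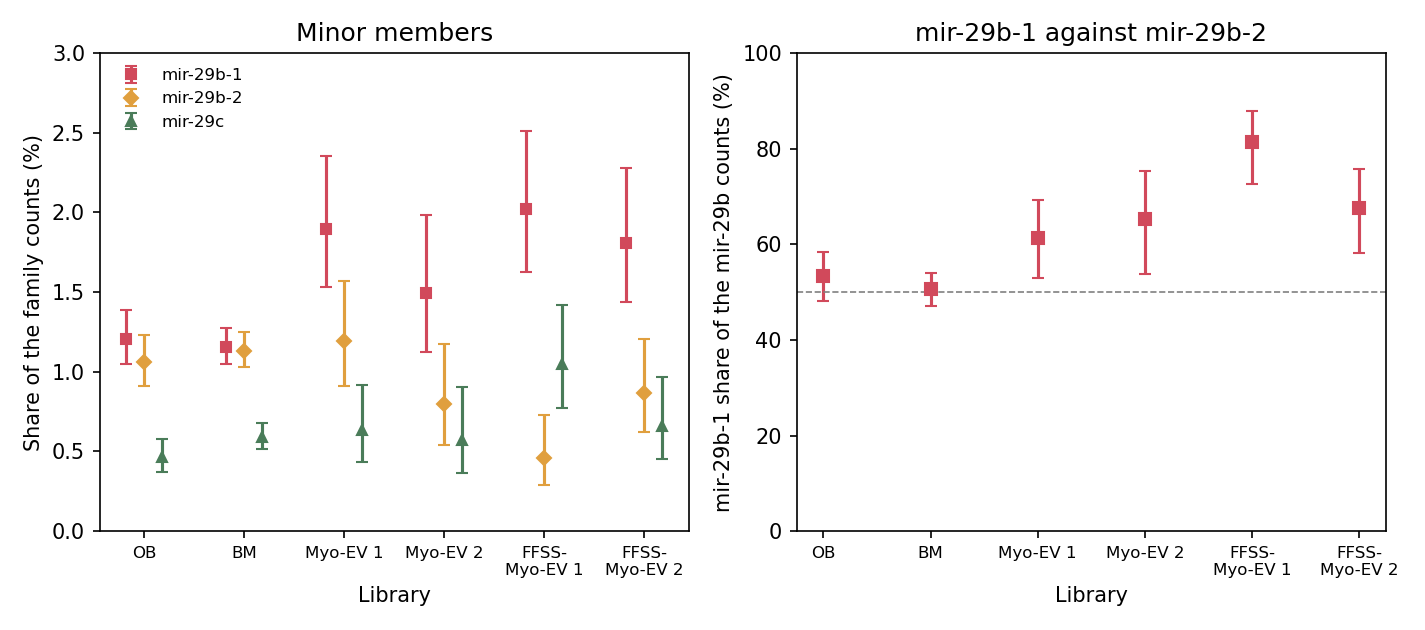
Left, share of the family's counts (%) held by mir-29b-1, mir-29b-2 and mir-29c in each library; right, share (%) of the mir-29b counts held by mir-29b-1, with a dashed line at 50%; bars are Wilson 95% intervals. The mir-29b-1 share is 53.3% in OB and 50.6% in BM and from 61.4% to 81.4% in the EV libraries.

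Comparing EVs with cells asks how prominent a miRNA is in the vesicles relative to the bone cells to which they could deliver it. The values are counts scaled per library, so the ratios compare relative levels among miRNA reads. Amounts of a miRNA per vesicle or per cell were not measured. The family was lower in the EVs than in both cells. The mean of the 4 EV libraries was 4071 ± 286 (SD, n = 4), which is 0.462 of the OB value and 0.287 of the BM value. OB was thus 2.17 times and BM 3.48 times the EV mean. These comparisons have 1 library of each cell type and no test. No library of C2C12 cells was made, so vesicle against cell and muscle line against bone cells cannot be told apart. Within the bulk OB and BM libraries, fewer cells of a type and less RNA per cell cannot be told apart.

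Against OB, mir-29a averaged 3934 ± 268 (SD, n = 4) in the EVs, a ratio of 0.459, with single EV libraries from 0.426 to 0.490. mir-29b-2 had the lowest ratio, 0.366 (libraries from 0.192 to 0.549), on an EV mean of 34.2 ± 14.0 (SD, n = 4). The ratio was 0.692 for mir-29b-1 (0.528 to 0.763) and 0.723 for mir-29c (0.528 to 0.998). Thus 2 of the 4 members, mir-29a and mir-29b-2, were at least 2-fold lower in the EVs than in OB. Among the 439 entries compared this background was 36.0%, or 158 entries, while 157 were at least 2-fold higher and the median ratio was 1.01. mir-29a stood in the lower part of that range, with 148 entries at or below its ratio.

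Against BM, all 4 members were at least 2-fold lower in the EVs. The ratio was 0.286 for mir-29a (libraries from 0.266 to 0.305), 0.450 for mir-29b-1 (0.343 to 0.496), 0.213 for mir-29b-2 (0.112 to 0.319) and 0.353 for mir-29c (0.258 to 0.487). No EV library reached 0.5 of the BM value for any member. The background of entries at least 2-fold lower in the EVs than in BM was 37.9%, or 151 of 398, and the median ratio was 1.22. The members are not independent of one another, since mir-29b-1 and mir-29b-2 share a mature form and each gene has a neighbour in the family.

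Between the cells, OB was lower than BM for each member. The ratio of OB to BM was 0.623 for mir-29a (counting interval 0.612 to 0.635), 0.650 for mir-29b-1 (0.545 to 0.773), 0.581 for mir-29b-2 (0.483 to 0.698) and 0.488 for mir-29c (0.369 to 0.638). The intervals of all 4 members overlapped. Only mir-29c was at least 2-fold lower in OB, against a background of 28.1% (117 of 416 entries) and a median ratio of 0.844. With other scalings of the libraries, the mir-29c ratio ranged from 0.412 to 0.564 and the mir-29b-2 ratio from 0.492 to 0.673, and so the side of the 2-fold limit on which either falls depends on the scaling.

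**Figure D3:**
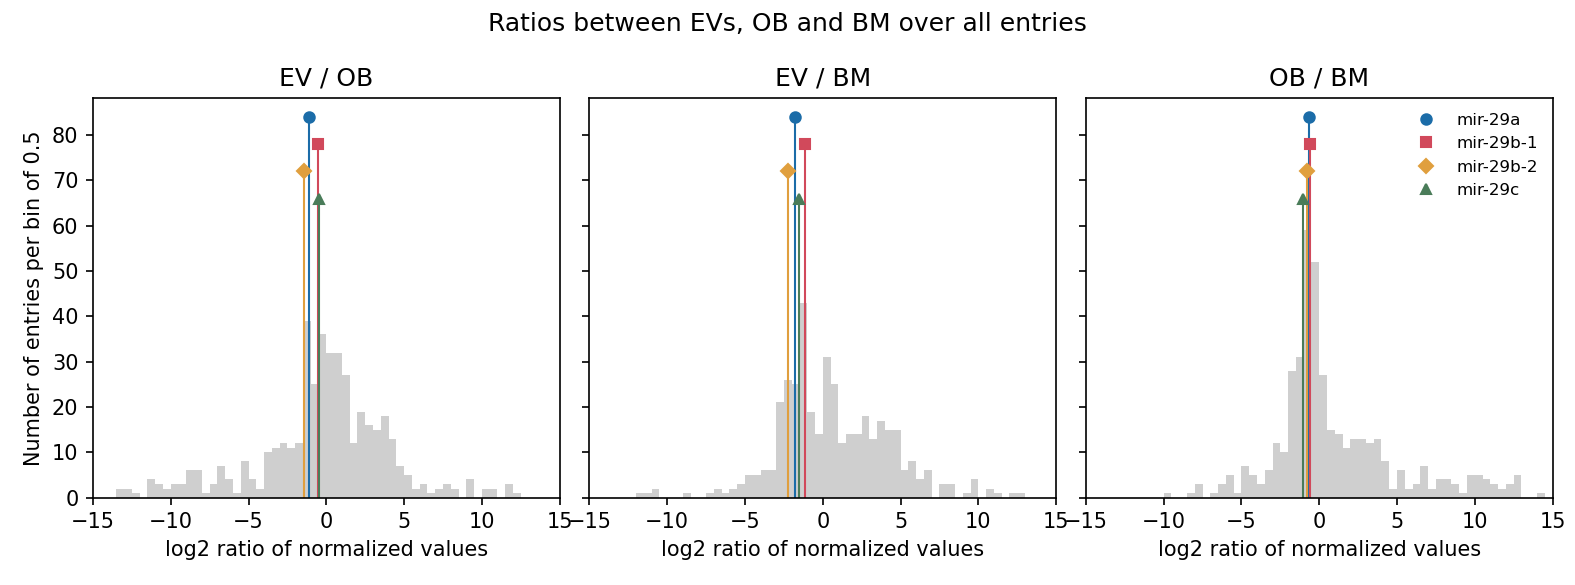
Distribution of the log2 ratio of normalized expression values (x axis; grey bars, number of entries per bin) between the EV mean and OB, the EV mean and BM, and OB and BM, with the 4 mir-29 members marked by coloured lines whose height has no meaning. All members lie left of 0 in each panel, with EV to BM ratios from 0.213 to 0.450.

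The comparison of FFSS-Myo-EVs with Myo-EVs asks whether loading of the myoblasts alters the miRNA content of their vesicles. No member of the family passed the test. The mean mir-29a value was 3890 ± 329 (SD, n = 2) in Myo-EVs and 3977 ± 315 (SD, n = 2) in FFSS-Myo-EVs, and the 3754.7 and 4199.7 of the loaded cells straddled the 4122.7 of Myo-EV replicate 1. mir-29b-1 averaged 68.8 ± 17.7 and 78.7 ± 0.07, and mir-29b-2 averaged 40.6 ± 15.1 and 27.8 ± 14.0 (SD, n = 2 each). The libraries of the groups overlapped for these 3 members.

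mir-29c was the 1 member of 4 whose groups did not overlap, with 27.1 and 21.6 in Myo-EVs below 40.8 and 28.8 in FFSS-Myo-EVs. The background of entries with groups apart was 60.5%, which 1 of 4 members does not exceed. For 1 entry at a time, the smallest p of an exact two-sided permutation test with 2 libraries in each group is 0.333, and no such test was used.

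The counts of the 4 EV libraries were tested in edgeR (quasi-likelihood, Benjamini-Hochberg adjusted over 354 entries), which gave for mir-29a a log2 fold change of -0.10 (95% interval -0.35 to 0.16, adjusted p = 0.654). For mir-29b-1 it was 0.05 (-0.53 to 0.64, adjusted p = 0.935), and for mir-29c 0.39 (-0.35 to 1.13, adjusted p = 0.501). mir-29b-2 came nearest to the threshold, with a log2 fold change of -0.71, a standard error of 0.37, an interval of -1.44 to 0.01 and an adjusted p of 0.132. Its size turned on single libraries, with a log2 fold change of -0.20 without Myo-EV replicate 1, -0.31 without FFSS-Myo-EV replicate 1 and -1.24 without FFSS-Myo-EV replicate 2. That of mir-29c was 0.05 without FFSS-Myo-EV replicate 1, 0.64 without Myo-EV replicate 1 and 0.69 without FFSS-Myo-EV replicate 2. In the same test 108 entries, a background of 30.5%, were called at an adjusted p under 0.05, of which 43 (12.1%) were higher and 65 (18.4%) lower in FFSS-Myo-EVs. On the authors' scaling the split was 54 higher and 39 lower.

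The intervals differ in what they leave possible. The variance behind them was estimated over the tested entries together (infinite prior degrees of freedom), not from each entry's own libraries. For mir-29a, with at least 3054 counts in each EV library, changes beyond a log2 value of 0.35 in either direction lay outside the interval. For mir-29b-2 and mir-29c, with 18 to 51 counts per EV library, 2-fold changes in 1 direction lay within it. The number of members with an unadjusted p under 0.05 was 0 in edgeR, and also in DESeq2 and limma. Under 4 other settings of edgeR, 1 member, mir-29b-2, was under it. The authors' scaling places FFSS-Myo-EVs higher by 0.12 on the log2 scale than the normalization used in the test (TMM), which is more than the mir-29a change, and on that scaling the sign of the mir-29a change turned (0.03).

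**Figure D4:**
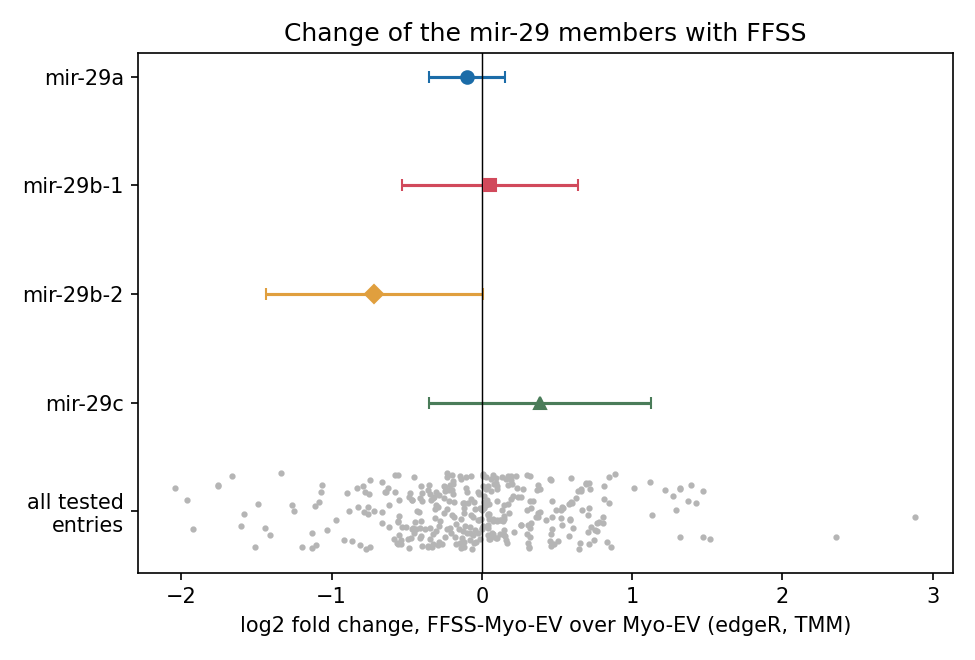
Log2 fold change (x axis) of FFSS-Myo-EVs over Myo-EVs for the 4 mir-29 members with 95% intervals from edgeR, above the 354 tested entries as grey points spread vertically for visibility. All 4 intervals contain 0, that of mir-29b-2 (-1.44 to 0.01) only just.

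The entries whose pattern over the 6 libraries was most like that of mir-29a were mir-101a, mir-425, mir-350, mir-340 and mir-361, with a Pearson r from 0.984 to 0.996 on log2 values (pseudocount 1) among the 245 entries whose mean reached 100. The same 5 were nearest to the family sum. The points share library, depth and scaling, and EV libraries supply 4 of the 6. All 5 had the order BM, OB, EVs, but the drop to the EVs differed in size. mir-361 had an EV to OB ratio of 0.551, mir-425 one of 0.416, mir-350 one of 0.232 and mir-101a one of 0.116. mir-340 went from 1788.2 in OB and 16714.6 in BM to between 3 and 6 in the EVs. Within the family, r over the 6 libraries ranged from 0.670 between mir-29b-2 and mir-29c, which are neighbours on chromosome 1, to 0.941 for mir-29a with mir-29b-1 and for mir-29b-1 with mir-29c.

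Other miRNAs of the same biology were set beside the family as lists. The first holds miRNAs known to target Runx2, the transcription factor that commits cells to the osteoblast lineage. Of 15 named, 14 were in the table and 8 were tested between FFSS-Myo-EVs and Myo-EVs. Of these, 1 was higher and 3 were lower, beside the backgrounds of 12.1% and 18.4% given above, with a median log2 fold change of -0.10 against -0.02 for all tested entries. On the authors' scaling the list's median was 0.03. mir-23a was the member that rose, from 1751.7 and 1923.5 to 2907.9 and 2879.5 (log2 fold change 0.53, edgeR adjusted p = 0.000222). mir-34c, which belongs to the p53-responsive mir-34 family, fell from 21091.4 and 26314.2 to 16754.1 and 17526.4 (log2 fold change -0.59, edgeR adjusted p = 0.00187). The muscle miRNA copies mir-133a-1 and mir-133a-2 also fell (log2 fold changes of -1.49 and -1.92, edgeR adjusted p = 0.00647 and 0.000736), on at most 19 counts per library, and neither passed in DESeq2. Without FFSS-Myo-EV replicate 1, neither mir-23a nor mir-34c was called, without replicate 2 mir-34c and mir-133a-1 were lost, and without either Myo-EV library mir-133a-1 was lost.

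The second list holds 13 miRNAs studied in fibrosis and matrix deposition, of which 8 were tested. Of these 3 were higher and 0 lower in FFSS-Myo-EVs, beside backgrounds of 12.1% and 18.4%, with a median log2 fold change of 0.33 against -0.02 for all tested entries. mir-199b, from a family abundant in mesenchymal cells, rose from 8308.7 and 9152.6 to 13493.5 and 12559.2 (log2 fold change 0.46, edgeR adjusted p = 0.00845). The identical mature copies mir-26a-1 and mir-26a-2 both rose by 0.66 on the log2 scale (edgeR adjusted p = 5.65e-05 and 6.24e-05) and count as 1 miRNA. mir-21a, a promoter of fibrosis and the most abundant member of this list, had a log2 fold change of -0.19 (edgeR adjusted p = 0.709). With DESeq2, limma or other scalings of edgeR, mir-199a-1 and mir-199a-2 were called as well, which made 5 entries. These 2 are gene copies whose log2 fold changes in the main test were nearly equal (0.329 and 0.327). Copies are counted separately here and below, so the entries are not independent. Without FFSS-Myo-EV replicate 1, 0 of the list were called, without replicate 2 only the mir-26a copies were, and without Myo-EV replicate 1 or 2 the higher calls numbered 5 and 6, with 1 lower call each (mir-214 and mir-21a). The study listed mir-23a, mir-26a and mir-199a among miRNAs raised by FFSS, filtered on level and fold change in these same libraries. Its values for mir-199a in OB and BM are those of the entry mir-199b. For real-time PCR it chose mir-155 and mir-196a instead. The Runx2 and fibrosis lists overlap that filtered set and are therefore not independent evidence of a direction.

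Against OB, 8 of 11 fibrosis and matrix miRNAs were at least 2-fold lower in the EVs and 0 at least 2-fold higher (median ratio 0.494). Against BM the list was divided, with 6 of 11 at least 2-fold lower and 4 at least 2-fold higher (median ratio 0.431). The 4 were mir-199a-1, mir-199a-2, mir-199b and mir-214, with ratios from 6.77 to 26.1. The backgrounds of lower entries were 36.0% against OB and 37.9% against BM. Of the 398 entries compared with BM, 158 were at least 2-fold higher in the EVs. The family's 0.462 against OB was close to the list's median there, and its 0.287 against BM was below the list's. The list's median against OB is itself the mir-26a-2 ratio. Both mir-26a copies (0.494 each) and mir-200b (0.5, on 16 OB counts) stood at the 2-fold limit against OB. For the Runx2 list, 4 of 8 entries were at least 2-fold lower in the EVs than in OB. Against BM 2 of 9 were, and the backgrounds are the same. In each comparison 2 were at least 2-fold higher. Against OB the 4 include both mir-218 copies, and the 2 higher entries were the mir-30c copies.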

How the data were processed

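Small RNA libraries of OB, BM, Myo-EVs and FFSS-Myo-EVs were analysed. In CLC Genomics Workbench the authors grouped reads by sequence and matched them to miRBase, and the count of reads per precursor entry was deposited. The deposited normalized expression value, a signal, was made by the authors by scaling each library's counts. The submitters' processing notes name mm10. The miRBase release, the mismatches allowed and the treatment of reads with several matches are not given in the sources used here.

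Members and lists were chosen with earlier results of these data known. Named entries were the 4 members, the 5 entries most correlated with mir-29a or the family sum, list members called in the EV test or of the highest level, and marker lists. FFSS was tested with edgeR 4.0.16 (R 4.3.3, TMM, quasi-likelihood, Benjamini-Hochberg) on entries with a mean normalized value of at least 10 over the EV libraries. The fit was also run on simulated counts with the same dispersion for every entry, taken from these data. That run cannot show how the test fares where variances differ between entries. Ratios between EVs and cells used entries with a mean of at least 10 over all libraries. A value under 3 counts was set to 3, and entries with both sides at or under 3 counts were left out. Alternatives were DESeq2 1.42.0, limma 3.58.1, other scalings and filters, a replicate block, and leaving out each EV library.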

Additional observations from a re-analysis of the deposited data

How the results depend on the processing

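No member was called under any setting tried for FFSS. Over the alternatives the adjusted p ranged from 0.218 to 0.955 for mir-29a, 0.307 to 0.998 for mir-29b-1, 0.0982 to 0.826 for mir-29b-2 and 0.275 to 0.971 for mir-29c. The log2 change of mir-29a turned to 0.0322 with limma and to 0.0316 with the authors' scaling, both of which use scaled values that place FFSS-Myo-EVs higher than TMM does by 0.12. With each library left out it ranged from -0.136 to 0.0531, positive without Myo-EV replicate 1 (adjusted p = 0.807), and that of mir-29b-1 from -0.131 to 0.418, negative without Myo-EV replicate 2 (adjusted p = 0.733). The 108 calls became between 44 and 132 when a library was left out (44 without FFSS-Myo-EV replicate 1 and 45 without replicate 2). With the replicate block there were 110 calls, and mir-29b-2 had an adjusted p of 0.0982. Same-numbered libraries had correlated deviations (r = 0.207), but 2 pairs cannot show that the numbers pair them, and the block changed no member's call. With a mean of at least 100, mir-29a alone was tested.

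The family's EV to OB ratio was 0.392 with median-of-ratios scaling, and its EV to BM ratio was 0.237 with library totals. The OB to BM ratio was 0.526 with library totals, 0.679 with TMM and 0.720 with median-of-ratios. All stayed below 1. Depth limits the EV values of mir-29b-1, mir-29b-2 and mir-29c, and OB and BM rest on 1 library each.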

Other observations

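mir-451a, an erythroid miRNA in the blood cell list, was higher in FFSS-Myo-EVs (25.9 and 17.7) than in Myo-EVs (3 and 4.8), with a log2 fold change of 2.36 (edgeR adjusted p = 6.79e-05) on 3 to 26 counts per library. It was not called in DESeq2. In BM its value was 1385.8.

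mir-133b, a muscle miRNA, was lower in FFSS-Myo-EVs by a log2 fold change of -1.75 (edgeR adjusted p = 0.000139), while mir-206, the muscle miRNA that makes up nearly all of the muscle sum in the EVs, had a log2 fold change of 0.15 (edgeR adjusted p = 0.420).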
